A study of Mus musculus with 21 samples.

Results

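The expression of 10 marker genes of macrophages and of antigen presentation by MHC class II was followed in pancreatic islets from mice that ate a regular diet (RD), a high-fat diet (HFD) or the same HFD with O304 mixed into it (HFD-O304). The genes were chosen by name, with earlier results of these data known, and are 10 of the 55536 gene identifiers counted. They are Ptprc, Adgre1, Csf1r, Cd68, Lyz2, Itgax and Mrc1, which mark leukocytes and macrophages, and Cd74, H2-Aa and H2-Ab1, which belong to the MHC class II pathway. All 10 passed the filter on low counts. Each group had 7 samples, and a sample was RNA from 150 islets out of the pooled islets of 5 male CBA mice, so that a replicate stands for a pool and not for 1 animal. Diets began at 10 weeks of age and lasted 9 or 10 weeks, as both durations are given for this experiment. O304, a compound described as an activator of every isoform of the energy sensor AMP-activated protein kinase, was given at 0.8 mg per g of diet. RD and HFD mice received no O304, and no group of RD mice with O304 was analysed here.

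Macrophages live inside normal islets next to the capillaries, where they take up material released by endocrine cells and present peptides from it. They depend on signalling through the receptor encoded by Csf1r, and in mice most of them carry the surface proteins encoded by Adgre1 (F4/80) and Itgax (CD11c) together with high MHC class II. Class II molecules are pairs of an alpha and a beta chain that travel from the endoplasmic reticulum to endosomes bound to the invariant chain, encoded by Cd74, which is then cut away so that a peptide can be loaded. Their genes are switched on together by the coactivator encoded by Ciita. Macrophages of the tissue around the islets, in contrast, are known for Mrc1 (CD206).

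Read pairs on genes ranged from 13809266 to 48922569 over the 21 samples, and the shallowest was HFD-O304 replicate 2. The title of HFD-O304 replicate 1 names O304 while its diet label names HFD alone, and the title was followed. The file names form 2 runs of library numbers, replicates 1 to 4 and replicates 5 to 7, which are called library sets here. HFD-O304 replicate 4 had the highest value of its group for 9 of the 10 genes, and calls that changed without it are given so. The summed normalised read count of 10 T and NK cell genes ran from 41.6 to 95.3, most of it from Lck, and that of 8 neutrophil and mast cell genes stayed between 13.2 and 38.1. The 6 B cell genes summed to between 25.5 and 152, most of it from Cd79a. The summed acinar genes ranged from 708 to 286535, more widely within groups than between them. The 8 mesenchymal genes summed to 9063 to 12793 in RD samples, 10842 to 19428 in HFD samples and 6038 to 10546 in HFD-O304 samples.

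Per kilobase of exon, Cd74 had the highest level of the 10 genes, with a mean of 1531 ± 189 normalised read counts per kb (SD, n = 7) in RD islets. H2-Ab1 (270.2 ± 20.2 per kb) and H2-Aa (257 ± 33.5 per kb) came next and did not differ beyond their spread. They were followed by Lyz2 (150.2 ± 20.98 per kb), Cd68 (63.0 ± 10.7 per kb) and Csf1r (40.1 ± 3.96 per kb). Adgre1 (20.4 ± 2.69 per kb) and Itgax (17.9 ± 3.74 per kb) lay within their spread of each other, and Ptprc (4.58 ± 0.598 per kb) and Mrc1 (2.40 ± 0.720 per kb) were lowest. The sample labels name islets and do not name macrophages. Among other macrophage genes, C1qb and C1qc, chains of the complement protein C1q, reached 203 ± 22.01 and 82.9 ± 7.17 per kb in RD islets. Their partner chain C1qa stood far above both, as given below. The list of 10 stromal macrophage genes was split, with group means of at most 6.45 normalised read counts for 7 of them. RD means were 936 for F13a1, 294 for Stab1 and 271 for Lyve1. CBA mice differ from the reference strain in their MHC haplotype, and the effect of this on the alignment of class II reads, and so on levels between genes, was not tested.

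HFD islets had a higher mean than RD islets for all 10 genes, and 1 of them, Itgax, passed the test (edgeR, adjusted p under 0.01). Among all 27229 genes tested, 3.54% were called in this comparison. A log2 fold change above 0 was seen for 49.2% of all genes. With O304 added, 9 of the 10 genes stood above their RD mean, beside 51.4% of all genes, and 1, H2-Ab1, was called, beside 1.31% of all genes. Between HFD-O304 and HFD islets 5 of the 10 genes were higher with O304, beside 53.4% of all genes, and 1, Csf1r, was called, beside 11.9% of all genes, so that the count of 1 in 10 was close to the share of all genes. No gene of the 10 had all HFD samples on one side of all RD samples, which 1.35% of all genes had. At an adjusted p under 0.05 the counts were 2, 3 and 4 of 10, beside 7.89%, 2.88% and 18.9% of all genes. The median log2 fold change of the 10 genes was 0.29, 0.32 and 0.042 in these comparisons, and that of all genes tested was -0.0044, 0.0078 and 0.027. Over the alternative fits, 8 to 10 genes were higher in each comparison with RD islets and 5 to 7 in HFD-O304 against HFD islets. The comparisons share their samples in pairs and are not independent. In RNA from whole islets a lower number of cells of one type and less RNA per cell cannot be told apart.

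The order of the group means split the 10 genes. Lyz2 was lowest in HFD-O304 islets and highest in HFD islets. Adgre1, Cd68, Itgax and Mrc1 had means ordered from RD over HFD-O304 to HFD. Ptprc, Csf1r, Cd74, H2-Aa and H2-Ab1 were ordered RD, HFD, HFD-O304. All 3 class II genes thus had their highest mean in HFD-O304 islets, and 5 of the 7 leukocyte and macrophage genes had theirs in HFD islets.

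**Figure D1:**
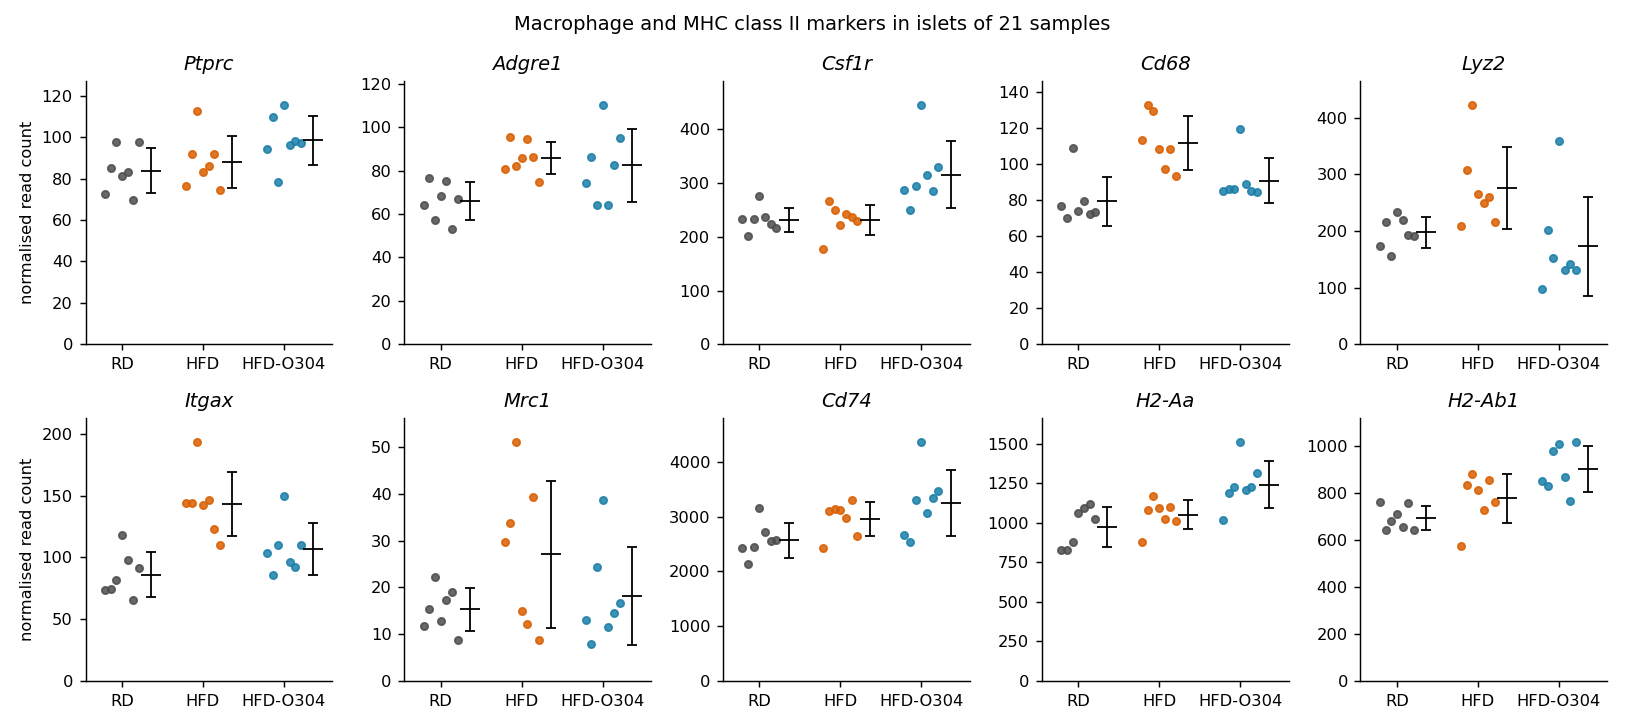
Normalised read counts (y axis, counts divided by size factors) of the 10 marker genes in the 7 RD, 7 HFD and 7 HFD-O304 samples (x axis), with points in order of replicate number and a bar for the mean ± SD of each group. Itgax is higher in HFD than in RD samples except for HFD replicate 7, which lies below RD replicate 4, the H2-Ab1 values of HFD-O304 samples all lie above those of RD samples, and the single high HFD-O304 point of Csf1r, Cd68 and Lyz2 is replicate 4.

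Ptprc encodes CD45, a phosphatase on the surface of all leukocytes. Its normalised read counts ranged from 69.8 to 97.8 (median 83.1) in RD samples, from 74.7 to 112.5 (median 85.9) in HFD samples and from 78.5 to 115.6 (median 97.2) in HFD-O304 samples. The groups overlapped widely, and no comparison passed the test. The difference on the log2 scale was 0.067 ± 0.12 (SE) in HFD against RD islets (edgeR adjusted p = 0.829) and 0.22 ± 0.12 in HFD-O304 against RD islets (adjusted p = 0.402), with a 95% confidence interval of -0.019 to 0.47 for the latter. Its sign in HFD against RD islets turned to -0.0035 without HFD replicate 3.

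Adgre1 encodes F4/80, the classical surface marker of mouse macrophages. It ranged from 52.9 to 76.5 (median 67.0) in RD samples, from 74.7 to 95.4 (median 86.1) in HFD samples and from 64.0 to 110.3 (median 82.8) in HFD-O304 samples. Of the 7 HFD samples 6 lay above the highest RD sample, whereas HFD-O304 samples spread over both other groups. HFD islets differed from RD islets by 0.37 ± 0.13 on the log2 scale (95% confidence interval 0.10 to 0.64), which did not pass the test (edgeR adjusted p = 0.0809). HFD-O304 against HFD islets gave -0.058 ± 0.13 (adjusted p = 0.835).

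Csf1r, the receptor for the macrophage growth factors CSF1 and IL-34, had nearly equal values in RD and HFD islets and higher values with O304. Normalised read counts ranged from 201 to 275 (median 233) in RD samples, from 177 to 266 (median 237) in HFD samples and from 251 to 446 (median 294) in HFD-O304 samples. In 6 of 7 HFD-O304 samples the value lay above the highest HFD sample, and replicate 4 stood at 446. Csf1r was 1.37-fold higher in HFD-O304 than in HFD islets (log2 fold change 0.45 ± 0.11, edgeR adjusted p = 0.00293). The call held with each of the 21 samples left out in turn, with log2 fold changes of 0.35 to 0.50, including HFD-O304 replicate 4. Within library sets the log2 fold change was 0.49 in replicates 1 to 4 (adjusted p = 0.0745) and 0.40 in replicates 5 to 7 (adjusted p = 0.0178), neither past the threshold with fewer samples. Against RD islets the log2 fold change was of the same size, 0.45 ± 0.11, and did not pass the test (adjusted p = 0.0149), while it passed without RD replicate 4 (0.51, adjusted p = 0.00897), without HFD replicate 1 (0.47, adjusted p = 0.00542) and without the shallow HFD-O304 replicate 2 (0.50, adjusted p = 0.00774), and by DESeq2 (0.46, adjusted p = 0.00115). HFD against RD islets gave 0.0029 ± 0.11 with a 95% confidence interval of -0.22 to 0.22. Csf1r overlaps Hmgxb3 on the opposite strand, and the counts used here are those of the Csf1r strand.

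Cd68 and Lyz2 are genes of the phagocytic machinery. Cd68 encodes a glycoprotein of late endosomes and lysosomes, and ranged from 69.8 to 108.9 (median 73.7) in RD samples, from 93.0 to 133 (median 108.1) in HFD samples and from 84.5 to 119.1 (median 86.1) in HFD-O304 samples. Every HFD sample lay above the RD median, but RD replicate 3 reached into the HFD range. Against RD islets the log2 fold change was 0.49 ± 0.12 in HFD islets with an adjusted p of 0.0122, outside the threshold. Without RD replicate 3 it passed, at 0.59 (adjusted p = 0.00246), as it did without HFD replicate 7 (0.53, adjusted p = 0.00570) or HFD-O304 replicate 4 (0.49, adjusted p = 0.00819). DESeq2 called it with all samples (0.49, adjusted p = 0.00151). With O304, 6 of 7 samples lay below the lowest HFD sample, and the log2 fold change in HFD-O304 against HFD islets was -0.29 ± 0.12 (adjusted p = 0.10).

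Lyz2 encodes the lysozyme of macrophages and granulocytes, which cuts bacterial cell walls. It ranged from 155 to 234 (median 193) in RD samples, from 208 to 423 (median 259.9) in HFD samples and from 97.4 to 358 (median 141) in HFD-O304 samples. Of the HFD-O304 samples 6 of 7 lay below the lowest HFD sample, and replicate 4 lay above 6 of the 7 HFD samples. With all samples the log2 fold change in HFD-O304 against HFD islets was -0.68 ± 0.20 (edgeR adjusted p = 0.0183) and did not pass, while DESeq2 gave -0.68 and called it (adjusted p = 0.00592). Without HFD-O304 replicate 4 Lyz2 fell by 0.98 on the log2 scale and passed the test (adjusted p = 4.36e-05), so that this 1 library decided the edgeR call. In replicates 5 to 7 alone it was -0.83 (adjusted p = 0.000301), also past the threshold, and in replicates 1 to 4, which hold replicate 4, it was -0.59 (adjusted p = 0.228). HFD against RD islets gave 0.48 ± 0.20 (adjusted p = 0.163).

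Itgax encodes CD11c, the integrin alpha chain of dendritic cells and of islet macrophages, and rose in HFD islets. The gene lies on the plus strand of chromosome 7 (GRCm38, 128129547 to 128150657). Normalised read counts ranged from 65.6 to 118.5 (median 82.1) in RD samples, from 110.4 to 194 (median 144) in HFD samples and from 86.2 to 150.0 (median 103.9) in HFD-O304 samples. Of the HFD samples 6 of 7 lay above the highest RD sample and 5 of 7 HFD-O304 samples lay below the lowest HFD sample. Itgax was 1.66-fold higher in HFD than in RD islets (log2 fold change 0.73 ± 0.14, edgeR adjusted p = 0.00180), and the call held with each sample left out, with log2 fold changes of 0.64 to 0.83. HFD-O304 against HFD islets gave -0.41 ± 0.14 (adjusted p = 0.0440) and HFD-O304 against RD islets 0.32 ± 0.15 (adjusted p = 0.294), neither past the test. In replicates 1 to 4 the mean of RD samples was 87.2 ± 21.2 (SD, n = 4), that of HFD samples 156 ± 25.2 and that of HFD-O304 samples 112.6 ± 26.9, and in replicates 5 to 7 they were 84.8 ± 16.997, 127 ± 18.2 and 99.6 ± 9.22 (SD, n = 3). The order was the same in both sets, and the log2 fold change in HFD against RD islets was 0.84 and 0.57, past the threshold in neither set alone (adjusted p = 0.0196 and 0.0722). With the mean of the 8 mesenchymal genes as a covariate the log2 fold change of Itgax was 0.61 and no longer passed (adjusted p = 0.0283). All 8 of these genes had higher means in HFD than in RD islets.

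Mrc1, the mannose receptor CD206 of stromal and scavenging macrophages, had the fewest reads of the 10 genes, between 3 and 51 per sample. It ranged from 8.78 to 22.1 (median 15.3) in RD samples, from 8.69 to 51.2 (median 29.7) in HFD samples and from 7.84 to 38.8 (median 14.6) in HFD-O304 samples. Values of HFD samples were split, with 4 of 7 above every RD sample and 3 within or below the RD range. The log2 fold change in HFD against RD islets, 0.80 ± 0.35, was the largest of the 10 genes and had the widest 95% confidence interval, 0.075 to 1.52 (adjusted p = 0.183). HFD-O304 against HFD islets gave -0.51 ± 0.34 (adjusted p = 0.354). No comparison of Mrc1 passed the test, although the interval in HFD against RD islets did not include 0.

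Class II genes share short promoter motifs that are read by RFX and NF-Y together with the coactivator encoded by Ciita. To show them, the 150 bases before the RefSeq start are printed for H2-Aa and H2-Eb1. H2-Eb1 is a class II beta chain gene that was called in HFD-O304 against RD islets. The beta chain gene H2-Ab1 was called there too, but the promoter set used held no entry for it. The printed bases come from the reference strain (GRCm38.p6). They lie at chr17:34287824-34287973 on the minus strand for H2-Aa and at chr17:34305717-34305866 on the plus strand for H2-Eb1. Capitals mark GNAAC, a core of the X box, and TGATTGG, the Y box. 
H2-Aa: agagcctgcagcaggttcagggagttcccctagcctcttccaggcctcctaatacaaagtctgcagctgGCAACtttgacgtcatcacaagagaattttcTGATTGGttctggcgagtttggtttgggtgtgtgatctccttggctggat
H2-Eb1: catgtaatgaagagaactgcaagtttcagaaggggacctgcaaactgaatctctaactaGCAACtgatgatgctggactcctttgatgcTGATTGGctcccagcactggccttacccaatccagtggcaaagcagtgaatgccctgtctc
The first base of TGATTGG lay 50 bases before the start in H2-Aa and 61 in H2-Eb1, with 26 and 25 bases between both motifs. On either strand, GNAAC followed by TGATTGG after 15 to 40 bases was found in 6 of the 8 class II genes with a promoter in the table, in the member Cd68, and in 0.429% of all 32851 promoters; TGATTGG alone was found in 5.71%. The motifs were chosen with these sequences in view, and a match describes letters and not binding.

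H2-Aa encodes the alpha chain of the class II molecule I-A. Its normalised read counts ranged from 826 to 1119 (median 1024) in RD samples, from 881 to 1166 (median 1080.2) in HFD samples and from 1015 to 1513 (median 1227) in HFD-O304 samples. In HFD-O304 samples 6 of 7 values lay above the highest HFD sample, and replicate 1, whose labels go against each other, lay within the other groups. HFD-O304 islets differed by 0.35 ± 0.083 on the log2 scale against RD islets (edgeR adjusted p = 0.0168) and 0.24 ± 0.083 against HFD islets (adjusted p = 0.0382), outside the threshold. Without HFD-O304 replicate 1 the former was 0.39 and passed (adjusted p = 0.00753), and without HFD replicate 1 it was 0.36 and passed (adjusted p = 0.00693). It also passed with the acinar covariate (0.37, adjusted p = 0.00860) and by DESeq2 (0.35, adjusted p = 0.00314). HFD against RD islets gave 0.10 ± 0.083 (adjusted p = 0.543).

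H2-Ab1, the beta chain that pairs with H2-Aa, rose in HFD-O304 against RD islets. The 2 genes are neighbours on chromosome 17 (GRCm38), H2-Ab1 at 34257689 to 34269419 on the plus strand and H2-Aa at 34282744 to 34287823 on the minus strand. H2-Ab1 ranged from 642 to 763 (median 680.2) in RD samples, from 577 to 884 (median 815) in HFD samples and from 768 to 1021 (median 868) in HFD-O304 samples. All 7 HFD-O304 samples lay above all 7 RD samples, which 1.56% of all genes tested showed in either direction. H2-Ab1 was 1.305-fold higher (log2 fold change 0.38 ± 0.083, edgeR adjusted p = 0.00768). The size was stable, between 0.35 and 0.42 with each sample left out, but the adjusted p lay close to the threshold: it was 0.0147, 0.0148, 0.0110, 0.0185 and 0.0210 without RD replicate 2, 3, 4, 5 and 7, and 0.0114, 0.0178, 0.0206, 0.0123 and 0.0211 without HFD-O304 replicate 1, 3, 4, 5 and 7, so that the call was kept in 11 of 21 fits. Within library sets the log2 fold change was 0.39 in replicates 1 to 4 (adjusted p = 0.149) and 0.37 in replicates 5 to 7 (adjusted p = 0.0671). With the acinar genes as a covariate the call was lost, at 0.38 (adjusted p = 0.0109). HFD replicate 1 lay below every RD sample and 4 of 7 HFD samples above all of them, and neither HFD against RD islets (0.17 ± 0.083, adjusted p = 0.256) nor HFD-O304 against HFD islets (0.22 ± 0.083, adjusted p = 0.0680) passed.

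Cd74, the invariant chain, was the most abundant of the 10 genes. It ranged from 2129 to 3159 (median 2549) in RD samples, from 2428 to 3314 (median 3102) in HFD samples and from 2542 to 4372 (median 3307) in HFD-O304 samples. The groups overlapped, with 4 of 7 HFD-O304 samples above the highest RD sample. Its log2 fold change was 0.20 ± 0.10 in HFD against RD islets (edgeR adjusted p = 0.243), 0.34 ± 0.10 in HFD-O304 against RD islets (adjusted p = 0.0571) and 0.14 ± 0.10 in HFD-O304 against HFD islets (adjusted p = 0.378), none past the test.

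**Figure D2:**
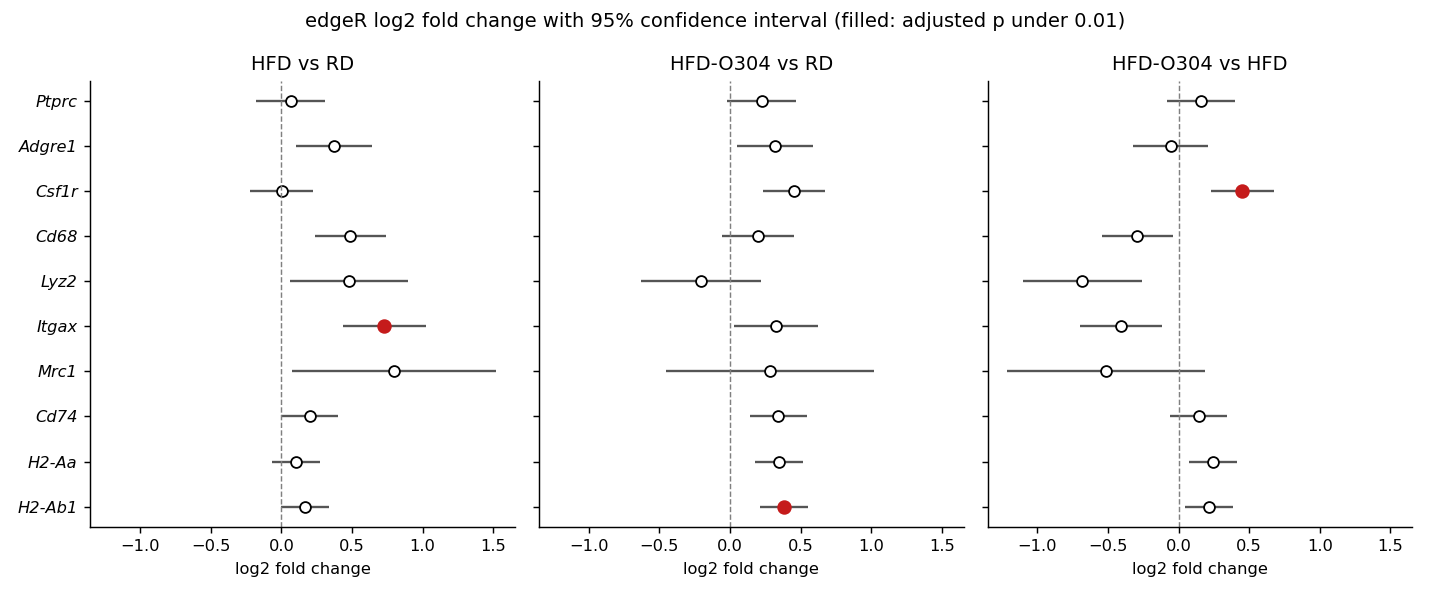
The log2 fold change from edgeR (x axis) of each marker gene (y axis) in the 3 comparisons, with lines for the 95% confidence interval and filled points for an adjusted p under 0.01. Itgax is filled in HFD against RD islets at 0.73, H2-Ab1 in HFD-O304 against RD islets at 0.38 and Csf1r in HFD-O304 against HFD islets at 0.45, and the points of Cd68, Lyz2, Itgax and Mrc1 lie right of 0 in the first panel and left of 0 in the last.

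Ratios between 2 genes of the same sample do not depend on the scaling of the library, and 3 were compared. The ratio of Cd74 to Csf1r counts ranged from 10.4 to 11.8 (median 11.3) in RD samples, from 11.5 to 14.1 (median 12.6) in HFD samples and from 9.27 to 11.7 (median 10.1) in HFD-O304 samples. In 5 of 7 HFD samples it lay above every RD sample, and in 6 of 7 HFD-O304 samples below every HFD sample. The mean log2 ratio was 0.21 higher in HFD than in RD islets (exact two-sided permutation test between 7 and 7 samples, p = 0.00408, adjusted over 9 tests p = 0.0184) and differed by -0.31 between HFD-O304 and HFD islets (exact p = 0.00175, adjusted p = 0.0157). HFD-O304 against RD islets gave -0.10 (exact permutation p = 0.0822, adjusted p = 0.185). Both differences had the same sign in each library set, with 0.28 and -0.36 in replicates 1 to 4 and 0.12 and -0.24 in replicates 5 to 7, where an exact test of 4 against 4 samples cannot give a p below 0.0286 and one of 3 against 3 none below 0.1.

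The ratio of H2-Ab1, the class II chain, to Adgre1, the general macrophage marker, averaged 10.7 ± 2.08 in RD islets (SD, n = 7), 9.09 ± 1.32 in HFD islets and 11.2 ± 2.33 in HFD-O304 islets. The largest of its differences, 0.29 on the log2 scale between HFD-O304 and HFD islets, did not pass (exact permutation p = 0.0542, adjusted p = 0.163). Itgax to Mrc1 had means of 6.02 ± 2.49, 6.96 ± 3.87 and 6.62 ± 2.03, with adjusted p of 0.801 or more. The spread of this last ratio within groups exceeded its differences between them.

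**Figure D3:**
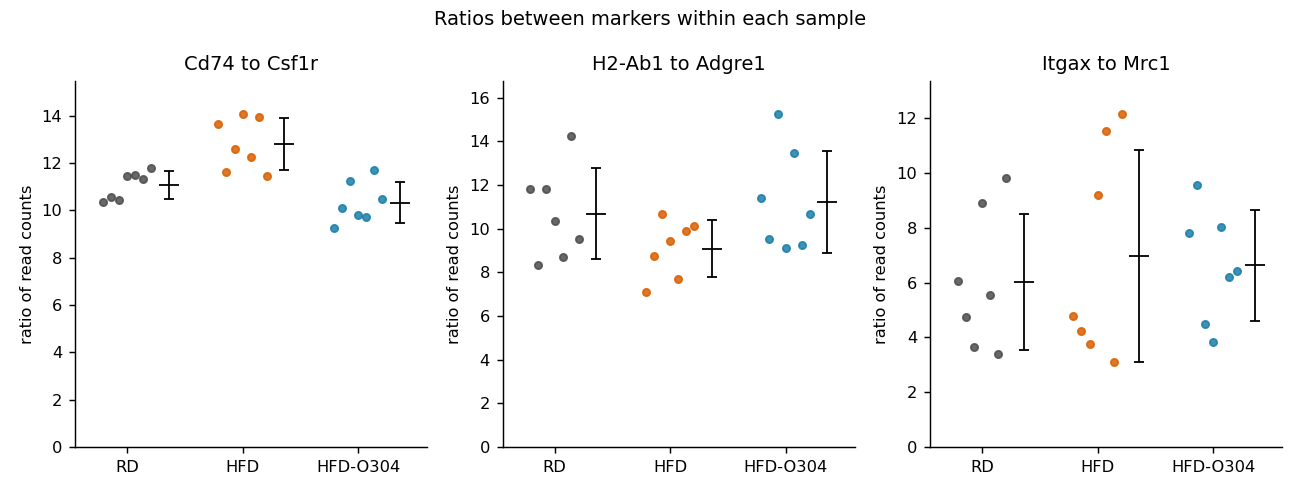
Ratios of read counts between 2 marker genes (y axis) per sample, with 7 samples in every group (x axis), with a bar for the mean ± SD of each group. The ratio of Cd74 to Csf1r is highest in HFD samples, up to 14.1, and lowest in HFD-O304 samples, down to 9.27, while the other ratios overlap between the groups.

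Within groups the 10 genes varied together. After the group means were subtracted from the log2 normalised read counts, Pearson's r over the 21 samples was positive for 45 of 45 pairs, with a median of 0.46, and 16 pairs had a permutation p past 0.05 after adjustment over 45 pairs. Much of this rested on HFD-O304 replicate 4, for without it 41 pairs were positive, the median was 0.29 and 4 pairs passed. The strongest pair was Csf1r and Cd74, with r = 0.85 (adjusted permutation p = 0.000450, which stands for the smallest p that 100000 permutations can give) and rho = 0.77 (adjusted p = 0.00225). For this pair r was 0.76 without the 2 samples farthest from the median, 0.78 without HFD-O304 replicate 4, 0.93 in replicates 1 to 4 (n = 12) and 0.28 in replicates 5 to 7 (n = 9), so that it was weak in the second library set. Cd74 and H2-Aa followed with r = 0.81 (adjusted permutation p = 0.000675) and rho = 0.83 (adjusted p = 0.000450), 0.81 without the 2 farthest samples, and 0.91 and 0.69 within the library sets. Cd68 and Mrc1 had r = 0.69 (adjusted permutation p = 0.00315) and rho = 0.59 (adjusted p = 0.0327), 0.65 without the 2 farthest samples, and 0.69 and 0.67 within the sets. Adgre1 and H2-Ab1 were the least related pair, with r = 0.066 (adjusted permutation p = 0.777) and rho = -0.0091 (adjusted p = 0.971).

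**Figure D4:**
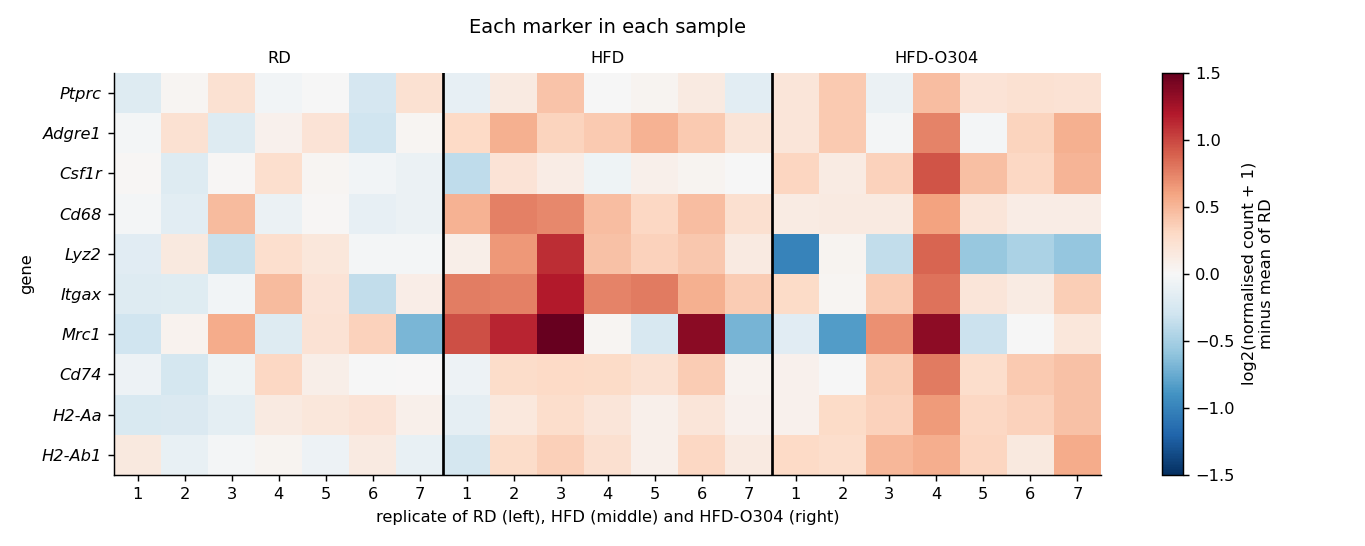
Each marker gene (rows) in each of the 21 samples (columns, replicates 1 to 7 of RD, HFD and HFD-O304), coloured by log2(normalised count + 1) minus the mean of the RD samples, from blue for lower to red for higher. The column of HFD-O304 replicate 4 is red for all 10 genes, and all HFD columns are red for Adgre1, Cd68 and Itgax.

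The genes with the pattern most like that of a marker over the 21 samples were named for Cd74, Adgre1 and Mrc1, by Pearson's r of the same group-centred values among 13216 genes with a mean of at least 50 normalised read counts. For Cd74 they were H2-Eb1 (r = 0.88), the leukocyte actin-bundling gene Lcp1 (0.86), Hr (0.80), S100a6 (0.80) and the leukocyte actin regulator Nckap1l (0.78). Those of Mrc1 were Fbn1 (0.82), which encodes the matrix protein fibrillin, Pxdn (0.79), Ahnak (0.79), Me3 (0.78) and Sfrp1 (0.77). Adgre1 came closest to Pctp (0.73), Ocln (0.68), Rpp30 (0.68), 2310030G06Rik (0.65) and Efcab7 (0.64). These values describe the 21 libraries, which share their depth and cell mixture between genes, and carry no test. Without HFD-O304 replicate 4 they were between 0.68 and 0.83 for the genes of Cd74, between 0.71 and 0.77 for those of Mrc1 and between 0.52 and 0.70 for those of Adgre1.

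Of 18 other genes of the class II pathway, 17 passed the filter on low counts, and H2-Eb2 did not. H2-Eb1, the beta chain of the class II molecule I-E, rose with O304 against RD islets. It ranged from 694 to 862 (median 769) in RD samples, from 718 to 923 (median 849.8) in HFD samples and from 922 to 1181 (median 966) in HFD-O304 samples, without overlap between HFD-O304 and RD samples. Its log2 fold change was 0.38 ± 0.068 against RD islets (edgeR adjusted p = 0.00138) and 0.26 ± 0.068 against HFD islets (adjusted p = 0.00606). Without HFD-O304 replicate 4 the call against RD islets held (0.33, adjusted p = 0.00393) and that against HFD islets was lost (0.22, adjusted p = 0.0190). The partner alpha chain, listed as H2-Ea-ps because the gene is inactive in the reference strain, had a mean of 607 ± 68.0 in RD islets (SD, n = 7), of 664 ± 54.7 with HFD and of 755 ± 94.6 with HFD-O304, with an adjusted p of 0.0247 against RD islets. Ciita, the coactivator of these genes, had means of 48.2 ± 8.02, 47.5 ± 10.52 and 67.3 ± 15.9 (adjusted p = 0.0333 in HFD-O304 against HFD islets), and did not pass. In replicates 1 to 4 the Ciita means were 47.5 ± 10.8, 48.6 ± 10.2 and 76.1 ± 15.9 (SD, n = 4). In replicates 5 to 7 they were 49.1 ± 3.88, 46.0 ± 13.1 and 55.5 ± 4.16 (SD, n = 3). Without HFD-O304 replicate 4 the log2 fold change of Ciita in HFD-O304 against HFD islets was 0.43 (edgeR adjusted p = 0.0863).

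Among the genes that process antigen, Lgmn, the endosomal protease legumain, fell in HFD-O304 against HFD islets, with a log2 fold change of -0.42 ± 0.068 (edgeR adjusted p = 4.21e-05). It ranged from 939.6 to 1388 (median 1153) in HFD samples and from 796 to 982 (median 849.7) in HFD-O304 samples. Cd40, a costimulatory receptor, fell as well (-0.55 ± 0.15, adjusted p = 0.00905), a call that was lost without HFD-O304 replicate 4 (adjusted p = 0.0131). Ctss, the protease cathepsin S that cuts the invariant chain, had means of 470.2 ± 53.3 in RD and 603 ± 94.5 in HFD islets and did not pass (adjusted p = 0.0138). In all, 0 of 17 genes were called by edgeR in HFD against RD islets (3 at an unadjusted p under 0.05 and 1 by DESeq2), 1 was called in HFD-O304 against RD islets, and 1 higher and 2 lower in HFD-O304 against HFD islets. The medians of their log2 fold changes were 0.11, 0.12 and 0.13, beside -0.0044, 0.0078 and 0.027 for all genes.

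**Figure D5:**
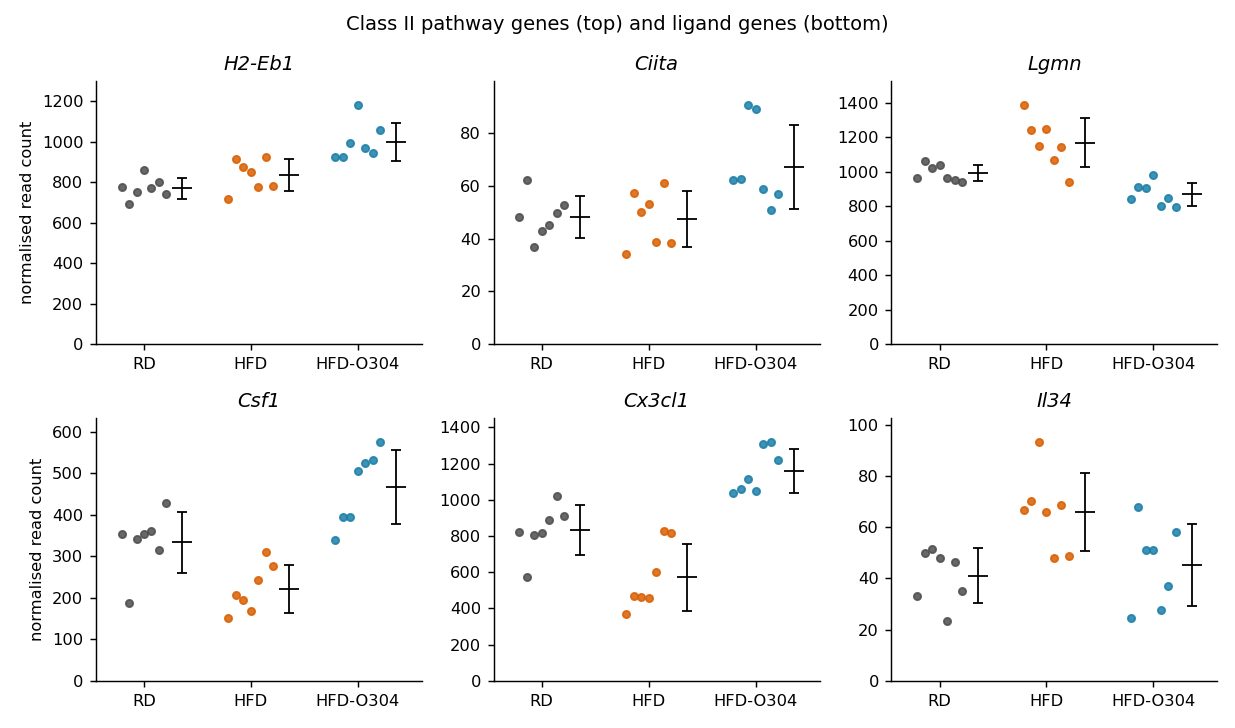
Normalised read counts (y axis) of the class II pathway genes H2-Eb1, Ciita and Lgmn and of the ligand genes Csf1, Cx3cl1 and Il34 in the 7 RD, 7 HFD and 7 HFD-O304 samples (x axis), with points in order of replicate number and a bar for the mean ± SD of each group. H2-Eb1 values of HFD-O304 samples lie above those of RD samples, and the values of Csf1 and Cx3cl1 in HFD-O304 samples all lie above those in HFD samples, where the right-hand points, replicates 5 to 7, are the higher ones.

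Csf1 and Il34 encode the ligands of the Csf1r receptor and differed in the order of their group means. Csf1 was lower in HFD islets, at 221 ± 58.2 normalised read counts (SD, n = 7), than in RD islets, at 334 ± 73.3, without passing the test (log2 fold change -0.59 ± 0.16, edgeR adjusted p = 0.0195), and stood at 466 ± 89.0 in HFD-O304 islets. Csf1 rose in HFD-O304 against HFD islets by 1.08 ± 0.16 on the log2 scale (adjusted p = 1.40e-05), with no overlap between the samples, which 6.17% of all genes showed in that comparison. In replicates 1 to 4 Csf1 averaged 180.0 ± 25.1 without and 408 ± 69.0 with O304 on the HFD (SD, n = 4). In replicates 5 to 7 these means were 277 ± 34.7 and 544 ± 27.6 (SD, n = 3), again higher with O304. Il34 averaged 41.1 ± 10.6 in RD islets, 66.0 ± 15.2 in HFD islets and 45.3 ± 16.1 in HFD-O304 islets and passed no comparison (adjusted p = 0.0482 in HFD against RD islets).

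Cx3cl1, the membrane-bound chemokine fractalkine, rose in HFD-O304 against HFD islets as well (1.02 ± 0.14, edgeR adjusted p = 7.52e-06). It ranged from 572 to 1023 (median 822) in RD samples, from 369.7 to 828 (median 471) in HFD samples and from 1040.0 to 1322 (median 1115) in HFD-O304 samples. Without and with O304 on the HFD its means were 440.0 ± 47.2 and 1065 ± 34.3 in replicates 1 to 4, and 749 ± 128 and 1284 ± 53.9 in replicates 5 to 7. The receptor gene Cx3cr1, which macrophages of the islet carry, had means of 191 ± 31.6, 194 ± 38.6 and 212 ± 43.0, and passed no comparison (adjusted p = 0.564 in HFD-O304 against HFD islets). Of the 9 ligand and chemokine genes, 5 passed the filter on low counts, and Csf2, Ccl7, Ccl12 and Ccl8 had at most 0.86 normalised read counts in any group mean. By edgeR 0 of the 5 were called in HFD against RD islets (3 at an unadjusted p under 0.05 and 2 by DESeq2) and 0 in HFD-O304 against RD islets (2 at an unadjusted p under 0.05 and 0 by DESeq2), and 2 were called, both higher, in HFD-O304 against HFD islets.

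Of 20 other macrophage genes 0 were called by edgeR in HFD-O304 against RD islets (7 at an unadjusted p under 0.05 and 2 by DESeq2). Among those nearest to the threshold there was Tyrobp, a signalling adaptor of myeloid receptors (0.53 ± 0.13, adjusted p = 0.0179). C1qa, with a mean of 1876 ± 186 in RD islets, 1924 ± 298 in HFD islets and 1710.5 ± 49.9 in HFD-O304 islets, passed no comparison. Per kb it stood far above its partner chains, at 1804 ± 178 in RD islets against 203 ± 22.01 for C1qb and 82.9 ± 7.17 for C1qc, and the reason was not tested. The medians of the 20 log2 fold changes were 0.077, 0.21 and -0.013.

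Of 10 genes listed for stromal macrophages, 8 passed the filter. Vsig4 and Timd4 did not. F13a1, a clotting factor chain, rose in HFD against RD islets (1.18 ± 0.20, edgeR adjusted p = 0.000485) and fell in HFD-O304 against HFD islets (-1.81 ± 0.21, adjusted p = 3.90e-07). Stab1, a scavenger receptor, did the same (0.65 ± 0.14 and -1.02 ± 0.14). Lyve1, a hyaluronan receptor of lymphatic vessels and some macrophages, rose with O304 against RD (0.97 ± 0.10, adjusted p = 1.50e-06) and HFD islets (1.32 ± 0.11, adjusted p = 1.68e-09). These 3 genes had the highest levels of the list, with means in RD, HFD and HFD-O304 islets of 936, 2124 and 603 for F13a1, 294, 463 and 225 for Stab1 and 271, 212 and 532 for Lyve1. The other 7, which include Cd163 (5.20, 6.11 and 6.45) and Folr2 (1.03, 0.880 and 0.909), had means of at most 6.45. Among them Siglec1 fell in HFD-O304 against HFD islets when HFD-O304 replicate 4 was left out (-3.08, adjusted p = 0.00244) and missed the threshold with it (-2.24 ± 0.65, adjusted p = 0.0152). The medians of the 8 log2 fold changes were 0.44, 0.21 and -0.41.

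All 8 genes listed for lipid-laden macrophages passed the filter. Their summed normalised read counts averaged 13723, 12439 and 14050 in RD, HFD and HFD-O304 islets. Those of the 7 leukocyte and macrophage members averaged 760, 964 and 886. Which cells the reads of the 8 genes came from was not tested. Lgals3, which encodes the sugar-binding galectin-3, rose in HFD against RD islets (0.91 ± 0.22, edgeR adjusted p = 0.00861) and fell in HFD-O304 against HFD islets (-0.94 ± 0.22, adjusted p = 0.00225). Fabp5, a fatty acid binding protein, fell in the latter comparison (-0.49 ± 0.12, adjusted p = 0.00497), as did the lysosomal protease gene Ctsd (-0.24 ± 0.058, adjusted p = 0.00417). Lpl, lipoprotein lipase, which islet cells also express, fell in HFD against RD islets (-1.08 ± 0.13, adjusted p = 1.13e-05) and rose in HFD-O304 against HFD islets (1.08 ± 0.13, adjusted p = 7.93e-07). With O304 against RD islets 0 of the 8 were called (1 at an unadjusted p under 0.05 and 1 by DESeq2), and the lowest p was that of the lipid droplet gene Plin2 (0.43 ± 0.11, adjusted p = 0.0230). The defining genes Gpnmb and Trem2 had at most 4.25 and 11.6 normalised read counts in any group mean. Medians were 0.38, 0.0046 and -0.28.

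Of the 12 genes listed for cytokines and activation, Arg1 and Tgfb1 had the highest counts, and Tgfb1, a cytokine made by many cells, had means of 163, 203 and 196 in RD, HFD and HFD-O304 islets. Il1b had means of 38.6 ± 11.6 in RD islets, 35.8 ± 7.09 in HFD islets and 37.6 ± 9.61 in HFD-O304 islets and Tnf of 1.78 ± 1.22, 1.76 ± 1.60 and 2.62 ± 2.28, and neither passed a comparison (edgeR adjusted p of at least 0.544). Il6, Il12b and Il10 did not reach 10 reads over the 21 samples. Ccl2, the chemokine for monocytes, ranged from 0 to 112.96 (median 6.495) in HFD-O304 samples against 1.74 to 11.01 (median 2.83) in HFD samples, with its highest value in replicate 4 and the next at 9.90. The log2 fold change in HFD-O304 against HFD islets was 2.34 ± 0.73 (adjusted p = 0.0232), and 0.48 without this library (adjusted p = 0.571). Of the 9 genes tested Arg1, an enzyme that cuts arginine, was the 1 called, lower in HFD against RD islets (-0.56 ± 0.12, adjusted p = 0.00287) and higher in HFD-O304 against HFD islets (0.63 ± 0.12, adjusted p = 0.000197). In HFD-O304 against RD islets 0 were called (1 at an unadjusted p under 0.05 and 0 by DESeq2). Medians of the list were -0.0030, 0.28 and 0.090.

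All 10 dendritic cell genes passed the filter, and 1, Siglech, was called, in HFD-O304 against HFD islets (1.52 ± 0.24, edgeR adjusted p = 3.21e-05). Zbtb46, a transcription factor gene of dendritic cells, had means of 150.0, 154 and 153 normalised read counts in RD, HFD and HFD-O304 islets, and Irf8, a transcription factor gene of dendritic cells, macrophages and B cells, of 48.0, 57.2 and 56.9. Siglech had means of 22.3, 12.8 and 37.1. The other 7 genes, Flt3, Xcr1 and Clec9a among them, had group means of at most 7.25. By edgeR 0 were called in HFD against RD islets (2 at an unadjusted p under 0.05 and 0 by DESeq2) and 0 in HFD-O304 against RD islets (2 at an unadjusted p under 0.05 and 0 by DESeq2). The medians of this list, -0.10, 0.33 and 1.03, rest in most part on low counts. Ifng, the cytokine best known to raise class II genes, had 0 reads in all 21 samples, which allows up to 3 reads in each. Of the other 6 genes of its pathway, the kinase gene Jak1 was lower in HFD against RD islets (-0.22 ± 0.052, adjusted p = 0.00863) and higher in HFD-O304 against HFD islets (0.34 ± 0.052, adjusted p = 2.97e-05), and the transcription factor gene Irf1 was higher in HFD-O304 against HFD islets (0.34 ± 0.070, adjusted p = 0.000829). Both are expressed in most cells. With O304 against RD islets 0 of the 6 were called (2 at an unadjusted p under 0.05 and 0 by DESeq2). Medians of the list were -0.11, 0.040 and 0.17.

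By edgeR 0 of the 10 T and NK cell genes were called in HFD against RD islets (3 at an unadjusted p under 0.05 and 0 by DESeq2), 0 in HFD-O304 against RD islets (0 at an unadjusted p under 0.05 and 0 by DESeq2) and 0 in HFD-O304 against HFD islets (2 at an unadjusted p under 0.05 and 1 by DESeq2), and Cd3e had group means of at most 1.37 normalised read counts. Of 6 B cell genes 1 was called, Cd79a, in HFD-O304 against HFD islets (1.19 ± 0.22, edgeR adjusted p = 0.000233), while 0 were called in the other comparisons (1 at an unadjusted p under 0.05 and 0 by DESeq2, and 1 at an unadjusted p under 0.05 and 0 by DESeq2). Ms4a1, which defines B cells, had group means of at most 1.21 normalised read counts. Of 8 neutrophil and mast cell genes 6 could be tested and 0 were called in HFD against RD (0 at an unadjusted p under 0.05 and 0 by DESeq2), HFD-O304 against RD (1 at an unadjusted p under 0.05 and 0 by DESeq2) and HFD-O304 against HFD islets (0 at an unadjusted p under 0.05 and 0 by DESeq2). Among 10 lysosome genes 0 were called in HFD against RD islets (5 at an unadjusted p under 0.05 and 0 by DESeq2) and in HFD-O304 against RD islets (1 at an unadjusted p under 0.05 and 0 by DESeq2), and Ctsl, the gene of a protease found in lysosomes of all cells, fell in HFD-O304 against HFD islets (-0.27 ± 0.065, adjusted p = 0.00311).

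Genes of other cell types differed between the groups as well. Of 8 mesenchymal genes 8 were higher in HFD against RD islets and 1 was called, Rgs5, a pericyte gene (0.49 ± 0.12, edgeR adjusted p = 0.00752), 1 fell in HFD-O304 against RD islets, again Rgs5 (-0.65 ± 0.12), and 4 fell in HFD-O304 against HFD islets, Rgs5 (-1.15 ± 0.12), Col3a1 (-1.45 ± 0.29), Pdgfrb and Col1a2. Of 8 endothelial genes 8 were lower with O304 in both comparisons, 1 called against RD and 2 against HFD islets, with Pecam1, a junction protein of endothelium, called in both (-0.33 ± 0.070 and -0.50 ± 0.070), and 0 were called in HFD against RD islets (3 at an unadjusted p under 0.05 and 1 by DESeq2). Of 10 acinar genes 0 were called in HFD against RD (0 at an unadjusted p under 0.05 and 0 by DESeq2), HFD-O304 against RD (1 at an unadjusted p under 0.05 and 0 by DESeq2) and HFD-O304 against HFD islets (0 at an unadjusted p under 0.05 and 0 by DESeq2). Of 6 duct genes 3 were called in HFD-O304 against HFD islets, all higher, among them Krt19 (1.15 ± 0.19), which was the 1 called against RD islets, and Sox9, which was not called without HFD-O304 replicate 4 (adjusted p = 0.0286), and 0 in HFD against RD islets (2 at an unadjusted p under 0.05 and 2 by DESeq2). Of the endocrine lists, 5 of 5 alpha cell, 3 of 4 delta cell and 2 of 8 beta cell genes were called in HFD against RD islets. Of these, 4 alpha, 3 delta and 1 beta cell genes were lower, and 1 alpha and 1 beta cell gene higher. In HFD-O304 against HFD islets 5 alpha, 4 delta and 5 beta cell genes were called. Here 4 alpha, 4 delta and 2 beta cell genes were higher, and 1 alpha and 3 beta cell genes lower. In HFD-O304 against RD islets the counts were 0 for alpha (2 at an unadjusted p under 0.05 and 1 by DESeq2), 0 for delta (2 at an unadjusted p under 0.05 and 0 by DESeq2) and 0 for beta cell genes (2 at an unadjusted p under 0.05 and 0 by DESeq2). The part of these cells in the values of the 10 markers was not tested, other than by the fits with acinar or mesenchymal genes as covariates. With the mesenchymal covariate the log2 fold change in HFD-O304 against HFD islets was 0.55 for Csf1r (adjusted p = 0.00174), and that in HFD-O304 against RD islets 0.40 for H2-Ab1 (adjusted p = 0.00558), both still called.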

How the data were processed

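RNA of islets from RD, HFD and HFD-O304 mice was sequenced as TruSeq libraries with paired 50 nt reads. Per the labels and the study's methods, the authors checked reads with FastQC and aligned them to GRCm38 with Ensembl 96 gene models by STAR, and deposited raw counts of read pairs per gene. The fourth column, pairs of the expected strand, was used, and pairs that match several places or genes are left out of it. Gene names, positions and exon lengths came from GENCODE M21, to which all 55536 identifiers matched, and promoters from RefSeq (GRCm38.p6).
Genes with at least 10 counts over the 21 samples (27229) were tested with edgeR (version 4.0.16, quasi-likelihood test, TMM factors) in 1 fit of all groups, with Benjamini-Hochberg adjustment and a threshold of 0.01. Normalised read counts are counts divided by DESeq2 (version 1.42.0) size factors. Ratios between genes of a sample, computed with a pseudocount of 0.5, were compared by exact two-sided permutation tests with adjustment over 9 tests and a threshold of 0.05, and correlations used 100000 permutations. Scripts were tested on simulated data. Alternatives were DESeq2, RLE factors, no filter, a filter of 1 CPM in 7 samples, unstranded counts, 2 groups alone, the replicate number as a block, the library set as covariate, each set alone, acinar or mesenchymal covariates, a threshold of 0.05 and leaving out each sample. Intervals cover the fitted model's error, and replicates are pools of islets, so p-values measure the spread between pools. Genes were named by rule: all members, up to 5 genes of a list with the smallest adjusted p among those called in a comparison, up to 2 with the smallest p where none was called, and the 5 most alike to Adgre1, Cd74 and Mrc1. Others, such as Ciita, Ctss, Il34, Cx3cr1, Il1b, Tnf, C1qa, C1qb, C1qc, H2-Ea-ps Tgfb1, Zbtb46, Irf8, Siglec1, Sox9 and the genes named as defining a cell type, fall outside the rule and were named for their role after their values were seen. Some genes of the lists are not reported here. The members, lists and tests were chosen with earlier results of these data known, and the correlations and the listed genes without HFD-O304 replicate 4 and the motif search were added after the data had been seen.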

Additional observations from a re-analysis of the deposited data

Results flagged for a closer look

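In 39 sets of 7 values, namely 10 genes and 3 ratios in 3 groups, 6 samples stood far from the other samples of their group by Dixon's test at the 95% level, where chance gives about 1 in 20. Of these, 4 were HFD-O304 replicate 4: Cd68 at 119.1 normalised read counts, Csf1r at 445.6, Itgax at 150.02 and Lyz2 at 358.3, each the highest of its group. The cause was not tested. The other 2 were Cd68 in RD replicate 3, at 108.9 normalised read counts, and Itgax in HFD replicate 3, at 193.8.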

How the results depend on the processing

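Itgax in HFD against RD islets and Csf1r in HFD-O304 against HFD islets kept direction and call with each of the 21 samples left out, with RLE factors, without a filter, with a filter of 1 CPM in 7 samples, with unstranded counts and by DESeq2. DESeq2 called 2, 3 and 2 of the 10 genes in HFD against RD, HFD-O304 against RD and HFD-O304 against HFD islets. Of all genes it called 1758, 727 and 4045 in these comparisons. Without a low-count filter 3 genes were called in HFD-O304 against RD islets, beside 370 of all genes. With the CPM filter, which Mrc1 did not pass, 2 were called in HFD against RD islets, beside 1104 of all genes. A fit of the 2 groups alone called 627 of all genes in HFD against RD islets. With the library set as covariate 2 and 2 genes were called in both comparisons with RD, and 1611 and 543 of all genes. An adjusted p under 0.05 gave 2, 3 and 4 genes and 2148, 785 and 5150 of all genes. The mesenchymal covariate left 0 genes called in HFD against RD islets, 265 and 1813 of all genes in HFD against RD and HFD-O304 against HFD islets. With fewer samples, replicates 1 to 4 gave 0, 0 and 0 genes and 563, 85 and 2001 of all genes, and replicates 5 to 7 gave 0, 0 and 1 genes and 307, 228 and 1456 of all genes. Pairs of genes with a correlation past the threshold fell from 16 to 10 in replicates 1 to 4, to 0 in replicates 5 to 7 and to 4 without HFD-O304 replicate 4.

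Leaving out 1 sample gave 589 to 1594, 221 to 423 and 2643 to 3578 genes called of all, and 1 to 2, 0 to 3 and 1 to 2 of the 10. The difference in the log2 ratio of Cd74 to Csf1r was then 0.18 to 0.23, -0.13 to -0.077 and -0.34 to -0.28, that of H2-Ab1 to Adgre1 -0.28 to -0.15, -0.0068 to 0.14 and 0.22 to 0.34, and that of Itgax to Mrc1 -0.051 to 0.28, 0.058 to 0.31 and -0.097 to 0.23. The cause of the changes of sign was not tested. Within library sets the log2 ratio of Cd74 to Csf1r did not pass: 0.28 and 0.12 in HFD against RD islets and -0.36 and -0.24 in HFD-O304 against HFD islets (exact permutation test, adjusted p = 0.129 in replicates 1 to 4 and 0.900 in replicates 5 to 7). Before adjustment these exact tests cannot give a p below 0.0286 in replicates 1 to 4 or below 0.1 in replicates 5 to 7. Replicates 5 to 7 thus could not pass at 0.05. The log2 ratio of Itgax to Mrc1 turned to -0.11 in HFD against RD islets (replicates 1 to 4) and to -0.15 in HFD-O304 against HFD islets (replicates 5 to 7).

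Log2 fold changes that turned their sign were not called before or after. In HFD against RD islets Csf1r was -0.042 in replicates 1 to 4, -0.0059 with the acinar covariate, -0.085 with the mesenchymal covariate and -0.027 to 0.064 with 1 sample left out, H2-Aa was -0.053 in replicates 5 to 7, and Ptprc was -0.043 with the mesenchymal covariate and -0.0035 to 0.11 with 1 sample left out. In HFD-O304 against RD islets Lyz2 was 0.037 in replicates 1 to 4 and Mrc1 -0.083 in replicates 5 to 7 and -0.0058 to 0.41 with 1 sample left out. With the mesenchymal covariate Adgre1 was 0.047 and Mrc1 0.070 in HFD-O304 against HFD islets. Of all alternatives for the 10 genes, 925 kept direction and side of the threshold, 26 passed it, 18 lost it and 18 turned. Among the other listed genes, those that passed the threshold only without HFD-O304 replicate 4 were Siglec1, Ctsb and Lum in HFD-O304 against HFD islets and Spp1 and Col3a1 in HFD against RD islets, and those that lost it were H2-Eb1, Cd40 and Sox9 in HFD-O304 against HFD islets.

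The labels do not say that samples with the same number share anything, and their pairing was not established. The correlation of same-numbered deviations was over 0.1 in 4, 6 and 5 of 7 pairs and not in all, with means of 0.20, 0.29 and 0.14. Each sample was also set against the 7 samples of each other group. In 16 of these 42 checks the best correlated of the 7 carried the same number. An equal chance for each of the 7 would give fewer. The main fit did not use the numbers, and what same-numbered samples share was not tested. With the replicate number as a block 2, 4 and 3 of the 10 genes were called, beside 1577, 543 and 3763 of all genes. The main fit called 963, 356 and 3230 of all genes. Those of the 10 were Itgax and Cd68 in HFD against RD islets. In HFD-O304 against RD islets they were H2-Ab1, H2-Aa, Csf1r and Cd74 (Cd74 at 0.33, edgeR adjusted p = 0.00908). In HFD-O304 against HFD islets they were Csf1r, Lyz2 and H2-Aa. The ratio of Cd74 to Csf1r by sign flips of these pairs differed by 0.21 in HFD against RD islets and by -0.31 in HFD-O304 against HFD islets (exact permutation test, adjusted p = 0.141 for each). Before adjustment, sign flips of 7 pairs cannot give a p below 0.0156. After adjustment over all ratio tests, a lone test at this floor could not pass at 0.05. The sign flips thus do not decide whether the ratio differed. Depth limits Mrc1, with 3 to 51 read pairs a sample.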
